A study of Arabidopsis thaliana with 8 samples.

Results

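The core circadian clock genes of Arabidopsis were taken as 10 genes fixed by their locus identifiers: CCA1 (AT2G46830), LHY (AT1G01060), RVE8 (AT3G09600), PRR9 (AT2G46790), PRR7 (AT5G02810), PRR5 (AT5G24470), TOC1 (AT5G61380), ELF3 (AT2G25930), ELF4 (AT2G40080) and LUX (AT3G46640). All 10 were present, and all 10 passed the filter on low values, in each of the 3 deposited tables, which hold 23022, 23427 and 23248 genes for arid5, chr11/17 and rlt1/2. Messenger RNA was sequenced from whole seedlings of the Col-0 ecotype, collected at 10 days from MS plates kept at 23 °C during a light period of 16 h and at 21 °C during a dark period of 8 h. The groups were homozygous mutants labelled arid5(-/-), chr11(-/-)chr17(-/-) and rlt1(-/-)rlt2(-/-), and wild type (WT), with n = 2 libraries in each. ARID5 is a subunit of plant ISWI chromatin remodelling complexes, CHR11 and CHR17 are their ATPases, and the DDT-domain proteins RLT1 and RLT2 bind those ATPases. The allele of each mutant and the hour of harvest are not given in the labels. Transcripts of most of these genes cycle within the day, so a change in level and a shift in the time of its peak cannot be told apart in these data. The labels do not say whether both libraries of a group came from plants grown apart. The p-values therefore reflect the spread between these samples alone, and that spread may be technical.

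The plant clock is a loop of transcription factors that follow each other through the day. CCA1 and LHY are related MYB factors that peak near dawn and repress genes of the evening, whereas the related factor RVE8 activates many of the same genes in the afternoon. The pseudo-response regulators PRR9, PRR7, PRR5 and TOC1 peak one after another from morning to evening and repress CCA1 and LHY. ELF3, ELF4 and LUX form the evening complex, a night-time repressor whose known targets include PRR9, PRR7 and LUX itself. In seedlings the clock times leaf movement, stem growth and the response to day length.

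Promoters are printed for 4 genes that show how the set differs in its regulatory letters. PRR5 and LUX had the largest rises in chr11/17. TOC1 holds the same evening element as both and rose 1.21-fold there, a call that depended on the setting. PRR9 changed in a direction that differed between mutants. Whether the motifs bear on these changes was not tested. Each promoter is the 250 bases before the annotated gene start, read 5′ to 3′ in the direction of the gene from the RefSeq annotation of build TAIR10.1. Capitals mark matches to 4 motifs. The evening element AAAATATCT and the CCA1-binding site AAAAATCT are both bound by CCA1, LHY and RVE8. The LUX binding site was searched as GATNCG, where N is any base. The G-box CACGTG is bound by bHLH and bZIP factors. PRR5 is at chr5:8358547-8358796 on the minus strand, TOC1 at chr5:24674713-24674962, LUX at chr3:17182792-17183041 and PRR9 at chr2:19232357-19232606, all 3 of these on the plus strand.
PRR5: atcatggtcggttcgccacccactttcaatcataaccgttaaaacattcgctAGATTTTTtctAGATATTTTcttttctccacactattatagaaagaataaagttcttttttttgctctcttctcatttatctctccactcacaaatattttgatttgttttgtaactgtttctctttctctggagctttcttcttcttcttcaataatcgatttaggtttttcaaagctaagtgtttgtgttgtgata
TOC1: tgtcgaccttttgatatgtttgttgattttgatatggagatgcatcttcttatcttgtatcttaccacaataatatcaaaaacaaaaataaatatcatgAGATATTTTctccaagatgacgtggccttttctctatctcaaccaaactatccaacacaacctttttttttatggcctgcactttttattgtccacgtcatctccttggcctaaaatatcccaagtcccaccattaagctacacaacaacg
LUX: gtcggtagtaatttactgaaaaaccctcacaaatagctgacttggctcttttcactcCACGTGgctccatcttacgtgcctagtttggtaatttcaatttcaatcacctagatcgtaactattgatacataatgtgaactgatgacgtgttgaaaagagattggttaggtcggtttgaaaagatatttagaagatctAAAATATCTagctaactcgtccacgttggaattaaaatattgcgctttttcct
PRR9: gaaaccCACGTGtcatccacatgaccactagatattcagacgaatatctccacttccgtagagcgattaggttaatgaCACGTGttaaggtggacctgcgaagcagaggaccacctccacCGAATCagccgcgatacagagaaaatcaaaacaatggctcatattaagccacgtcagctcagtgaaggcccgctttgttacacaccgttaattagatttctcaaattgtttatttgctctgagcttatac

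Both strands were searched, the 4 motifs did not overlap one another at any match, and an antisense match is printed as its reverse complement. The evening element was present in 3 of the 10 clock promoters, against 2.36% of 27443 promoters of the same length. Its match lay 187 bases before the start of PRR5, 151 bases before TOC1 and 53 bases before LUX. The CCA1-binding site was present in PRR5 alone of the 10, against 6.69% of all promoters. LUX binding sites, with any base at N, were matched in 4 of the 10, RVE8, PRR9, ELF3 and ELF4, against 17% of all promoters. The match was GATGCG in RVE8 and GATACG in ELF4. On the other strand it was CGAATC in PRR9 and CGTATC in ELF3. A G-box was matched in 5 of the 10, CCA1, LHY, PRR9, PRR7 and LUX, against 6.49%, and PRR9 held 2 of them. These matches are letters within a window and were not set against binding data.

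Depth was 23135817 to 29965298 reads per library in the 22636 genes that all tables share. Values below are the normalised read counts that the authors deposited, which are reads adjusted by edgeR's quantile method to a common library size and not reads simply divided by a factor, unless reads per kb of exon are named. The mutants share the same WT libraries, and the WT values differ between tables because each table was adjusted separately from the same WT reads. The mutated genes did not all lose transcript. ARID5 (AT3G43240) had 213 and 206 in arid5 libraries, against 831 and 845 in WT. CHR11 was higher in the libraries labelled chr11/17, at 7226 and 7319 or 2.43-fold above WT, and RLT1 had 2318 and 1908 in the libraries labelled rlt1/2, against 1955 and 1970 in WT. CHR17 was lower in the libraries labelled chr11/17, at 771 and 833 against 1395 and 1316 in WT (-0.75, adjusted p = 0.000123), and RLT2 was lower in the libraries labelled rlt1/2, at 88 and 61 against 2292 and 2161 in WT (-4.75, adjusted p = 1.92e-09). In each double mutant 1 of the 2 mutated genes was thus lower, as the label has it, and the other was not, so these libraries are named by their labels. All 8 listed leaf markers, photosynthetic genes such as RBCS1A and LHCB2.1, were called lower in each mutant. Of all genes tested, 24.6%, 36% and 24% were called lower in arid5, chr11/17 and rlt1/2. Their summed level was 839936 and 928361 in arid5 against 1695091 and 1639394 in WT, 239174 and 359603 in the libraries labelled chr11/17 against 1692733 and 1637041 in WT, and 1008330 and 817303 in the libraries labelled rlt1/2 against 1876949 and 1809704 in WT. Of 12 root markers, 7, 5 and 7 were higher and 1, 3 and 1 lower in arid5, chr11/17 and rlt1/2. That is 66.7% called in each, against 47.9%, 71.8% and 47.9% of all genes tested. Their summed level was 3016 and 2941 in arid5 against 2459 and 2456 in WT, 2305 and 2378 in the libraries labelled chr11/17 against 2456 and 2453 in WT, and 3889 and 4072 in the libraries labelled rlt1/2 against 2724 and 2711 in WT. In whole seedlings, fewer cells of a type and less RNA per cell cannot be told apart. The part of tissue make-up in the clock gene results was not tested.

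**Figure D1:**
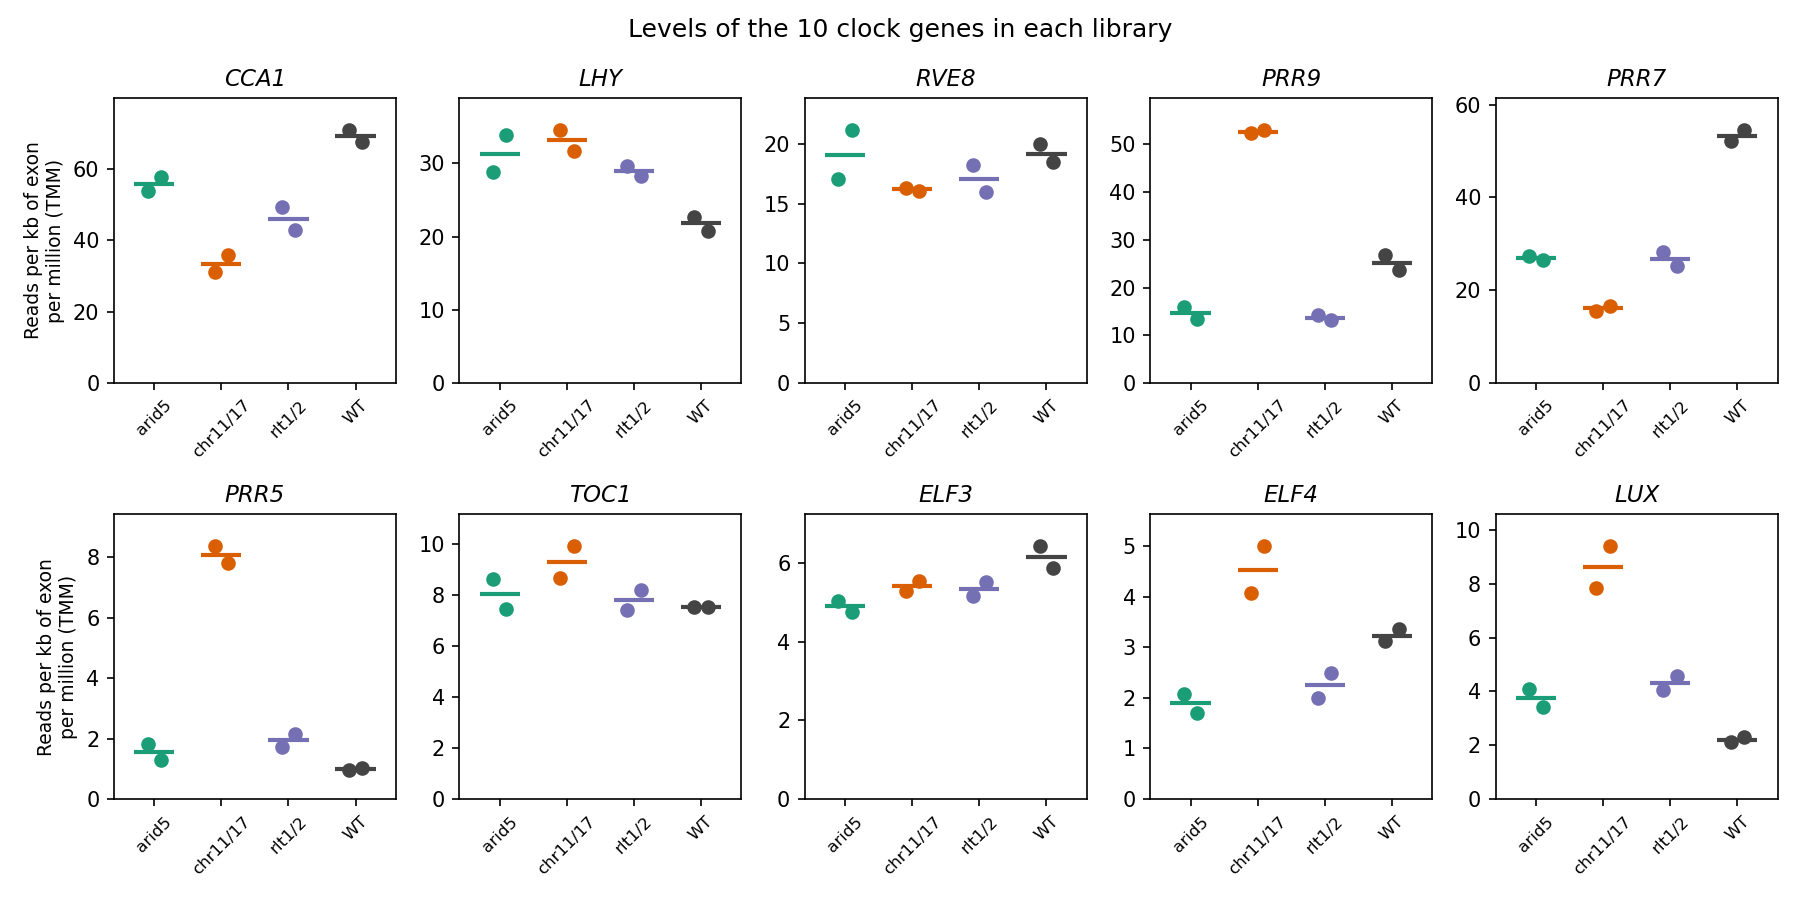
Levels of the 10 clock genes in each library, as reads per kb of exon after scaling all 8 libraries to a common total with TMM factors (linear axes from 0). Points are libraries (n = 2 per group) and bars are group means. PRR9 stands at 52.3 and 53.1 in the libraries labelled chr11/17, above every library of the other groups.

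Per kb of exon, the order of the 10 transcripts differed between the groups. Exon length was the union of all annotated exons of a gene. For LUX that was 3916 bases of a gene of 3918, so the order of genes within a group depends on this choice. In arid5 the order of mean levels was CCA1 (55.8), LHY (31.3), PRR7 (26.9), RVE8 (19.1), PRR9 (14.7), TOC1 (8.06), ELF3 (4.90), LUX (3.76), ELF4 (1.89) and PRR5 (1.56), and only the ranges of ELF4 and PRR5 met among neighbours. In the libraries labelled chr11/17 PRR9 came first, at 52.7, followed by CCA1 (33.5), LHY (33.2), RVE8 (16.2), PRR7 (16.1), TOC1 (9.32), LUX (8.61), PRR5 (8.09), ELF3 (5.42) and ELF4 (4.53). There the ranges of CCA1 and LHY overlapped, as did those of RVE8 and PRR7, of TOC1 and LUX, and of LUX and PRR5. The libraries labelled rlt1/2 had the same order as arid5, with CCA1 at 46.1, LHY at 28.9, PRR7 at 26.7 and PRR5 last at 1.95, and again the ranges of ELF4 and PRR5 overlapped. In WT the order was CCA1 (69.3), PRR7 (53.3), PRR9 (25.2), LHY (21.8), RVE8 (19.2), TOC1 (7.55), ELF3 (6.16), ELF4 (3.23), LUX (2.21) and PRR5 (0.998), and no neighbours overlapped.

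The dawn MYB factors moved in opposite directions in every mutant: CCA1 was lower and LHY was higher. CCA1 had 3532 and 3784 in arid5, against 4650 and 4435 in WT. The libraries labelled chr11/17 had 1993 and 2323, against 4643 and 4428 in WT. The libraries labelled rlt1/2 had 3601 and 3104, against 5149 and 4896 in WT. Mutant and WT libraries did not overlap in any table. Such separation, here and below, is weak evidence alone, since an exact permutation test of 2 libraries against 2 cannot give p below 0.333. It also occurred for changes that were not called, such as RVE8 in rlt1/2 and ELF4 in chr11/17. The same WT libraries serve every comparison, and the share of all genes without overlap is not given here. As a log2 ratio of mutant to WT, with 10 added to each value, CCA1 fell by 0.31 ± 0.06 in arid5 (SE; limma, adjusted p = 9.11e-04), by 1.07 ± 0.09 in chr11/17 (to 0.476 of WT; adjusted p = 4.4e-05) and by 0.59 ± 0.08 in rlt1/2 (to 0.667 of WT; adjusted p = 1.14e-04). The fall in arid5 depended on scaling, since with every library brought to the same total it was -0.05 (adjusted p = 0.437).

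LHY, the partner of CCA1, had 2371 and 2794 in arid5, against 1865 and 1721 in WT. It had 2795 and 2574 in the libraries labelled chr11/17, against 1863 and 1719 in WT. The libraries labelled rlt1/2 had 2704 and 2584, against 2065 and 1900 in WT. All mutant libraries were thus above all WT libraries, with rises of 1.44-fold in arid5 (log2 change 0.52 ± 0.08, adjusted p = 1.92e-04), 1.50-fold in chr11/17 (0.58 ± 0.08, adjusted p = 4.38e-04) and 1.33-fold in rlt1/2 (0.41 ± 0.07, adjusted p = 5.92e-04).

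RVE8, the activating relative, stayed near its WT level. It had 963 and 1199 in arid5, against 1126 and 1046 in WT, so the groups overlapped (-0.01 ± 0.09, 95% interval -0.22 to 0.19, adjusted p = 0.912). It had 1139 and 998 in the libraries labelled rlt1/2, against 1247 and 1155 in WT, which did not pass the test (-0.17 ± 0.09, interval -0.36 to 0.02, adjusted p = 0.126). It had 899 and 894 in the libraries labelled chr11/17, against 1125 and 1045 in WT, a fall of 0.27 ± 0.07 (adjusted p = 0.0139). That call was lost without WT replicate 1 (adjusted p = 0.134), with equal library totals (0.204), with DESeq2 (0.0804) and with edgeR on all 8 libraries (0.0564). In arid5 RVE8 was called higher with equal library totals (0.25, adjusted p = 0.0387), and in rlt1/2 it was called lower without replicate 1 of the libraries labelled rlt1/2 (-0.26, adjusted p = 0.0126).

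Among the pseudo-response regulators, PRR7 was lower in all 3 mutants, while PRR9 was lower in arid5 and rlt1/2 and higher in chr11/17. PRR9, the regulator that peaks earliest, had 817 and 698 in arid5, against 1376 and 1220 in WT. It had 2641 and 2696 in the libraries labelled chr11/17, against 1374 and 1218 in WT. The libraries labelled rlt1/2 had 813 and 751, against 1523 and 1347 in WT. No mutant library lay within the WT range. PRR9 fell by 0.77 ± 0.09 in arid5 (1.71-fold; adjusted p = 2.37e-05) and by 0.87 ± 0.09 in rlt1/2 (1.84-fold; adjusted p = 6.99e-06), and rose by 1.04 ± 0.08 in chr11/17 (2.06-fold; adjusted p = 2.95e-05). The promoter of PRR9 printed above is the only one of the 10 that held both a LUX binding site and a G-box.

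PRR7, which peaks after PRR9, had 2120 and 2066 in arid5, against 4048 and 4259 in WT. It had 1191 and 1275 in the libraries labelled chr11/17, against 4043 and 4252 in WT. The libraries labelled rlt1/2 had 2445 and 2167, against 4483 and 4701 in WT. All mutant libraries were well below WT. The falls were 1.98-fold in arid5 (-0.98 ± 0.06, adjusted p = 2.08e-07), 3.36-fold in chr11/17 (-1.74 ± 0.07, adjusted p = 2.64e-06) and 1.99-fold in rlt1/2 (-0.99 ± 0.08, adjusted p = 1.39e-06). PRR7 had the smallest adjusted p of the 10 genes in each of the 3 comparisons.

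PRR5, an afternoon regulator, was the least abundant of the 10 in WT and had the largest rise of the 10 in chr11/17. It had 331 and 311 in the libraries labelled chr11/17, against 39 and 42 in WT, a 7.97-fold rise (2.72 ± 0.15, adjusted p = 7.57e-06). In the libraries labelled rlt1/2 it had 78 and 97, against 43 and 46 in WT, a 1.96-fold rise (0.83 ± 0.20, adjusted p = 0.00456). In arid5 it had 74 and 52, against 39 and 42 in WT, and the groups did not overlap but the difference missed the threshold (0.52 ± 0.21, adjusted p = 0.0634). In arid5 it was called higher without replicate 2 of that mutant (0.74, adjusted p = 0.0332), with edgeR on all 8 libraries (0.64, adjusted p = 0.0473) and when library totals were made equal (0.74, adjusted p = 0.0131). PRR5 was the member whose promoter held both an evening element and a CCA1-binding site.

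TOC1, the evening regulator that represses CCA1 and LHY, differed little from WT. It had 584 and 505 in arid5, against 509 and 513 in WT (0.09 ± 0.09, interval -0.11 to 0.29, adjusted p = 0.459). It had 557 and 614 in the libraries labelled rlt1/2, against 564 and 566 in WT (0.05 ± 0.09, interval -0.15 to 0.25, adjusted p = 0.688). In both comparisons the mutant libraries lay on either side of WT, and in both TOC1 was called higher with equal library totals (0.35, adjusted p = 0.00983, in arid5 and 0.32, adjusted p = 0.0142, in rlt1/2). TOC1 had 576 and 663 in the libraries labelled chr11/17, against 508 and 512 in WT, a 1.21-fold rise (0.27 ± 0.10, adjusted p = 0.0391). That call was lost without WT replicate 1 (adjusted p = 0.139), without WT replicate 2 (0.127), without chr11/17 replicate 2 (0.149) and with DESeq2 (0.0936).

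**Figure D2:**
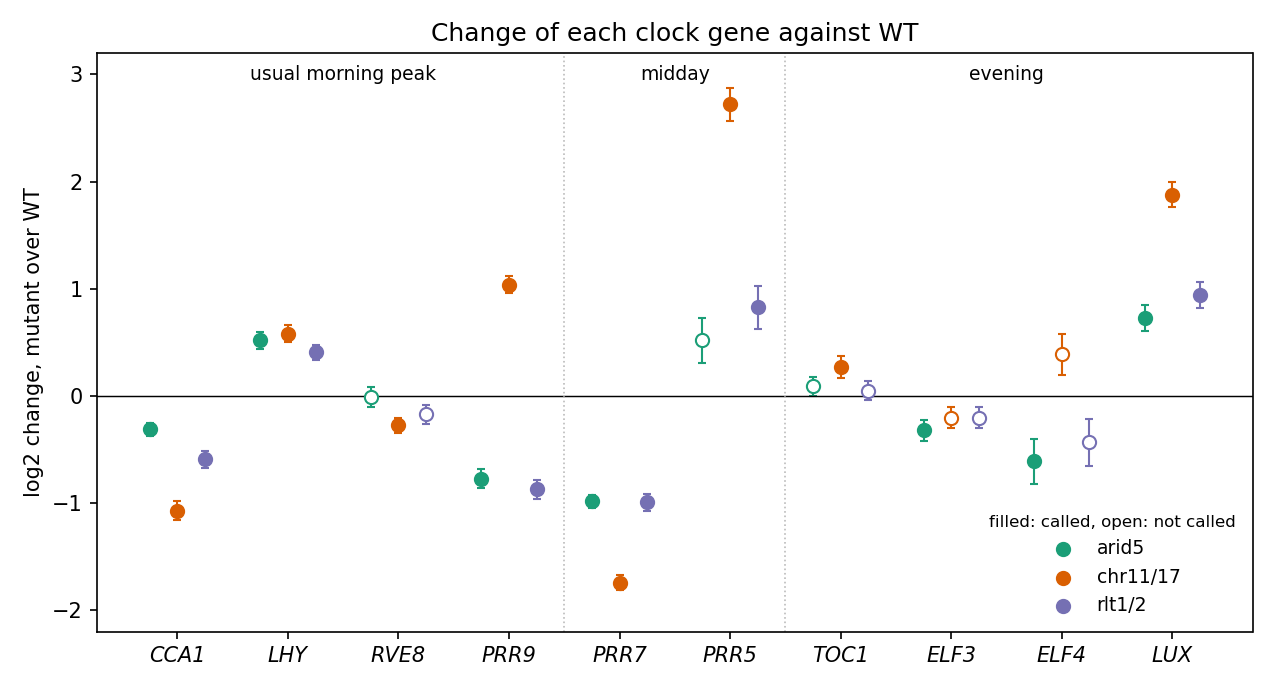
Log2 ratio of mutant to WT for each clock gene, with 10 added to each deposited value, with standard errors from limma (n = 2 libraries per group). Filled points passed an adjusted p of 0.05 and open points did not. PRR9 lies on opposite sides of 0 in chr11/17 (1.04) and in arid5 (-0.77) and rlt1/2 (-0.87).

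Of the evening complex, LUX was higher in every mutant while ELF3 and ELF4 were lower or not called. LUX, the DNA-binding subunit, had 387 and 322 in arid5, against 198 and 220 in WT. It had 722 and 874 in the libraries labelled chr11/17, against 198 and 219 in WT. In the libraries labelled rlt1/2 it had 425 and 478, against 220 and 242 in WT. Every mutant library exceeded every WT library, and LUX rose 1.70-fold in arid5 (0.73 ± 0.12, adjusted p = 5.11e-04), 3.82-fold in chr11/17 (1.88 ± 0.12, adjusted p = 1.55e-05) and 1.95-fold in rlt1/2 (0.94 ± 0.12, adjusted p = 4.42e-05). The LUX gene model overlaps an antisense gene, AT3G46650, over 1507 bases, and whether counting used strand is not given in the sources used here. AT3G46650 itself had 19 and 18 in arid5, 28 and 24 in the libraries labelled chr11/17 and 27 and 18 in the libraries labelled rlt1/2, against 6 and 18 in WT of the first 2 tables and 7 and 19 in WT of the third.

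ELF3, the scaffold of the complex, had 333 and 315 in arid5, against 426 and 390 in WT, a fall of 0.32 ± 0.10 (adjusted p = 0.0195). That call was lost without WT replicate 1 (adjusted p = 0.134), without arid5 replicate 2 (0.0731), with DESeq2 (0.0977) and with equal library totals (0.588). ELF3 had 343 and 362 in the libraries labelled chr11/17, against 425 and 389 in WT (-0.20 ± 0.10, interval -0.44 to 0.04, adjusted p = 0.114), and 380 and 405 in the libraries labelled rlt1/2, against 471 and 431 in WT (-0.20 ± 0.10, interval -0.42 to 0.03, adjusted p = 0.143). All mutant libraries of ELF3 were below WT, and the last 2 differences did not pass the test. The gene ALPHA-VPE on the opposite strand overlaps ELF3 over 24 bases and had 834 and 745 in the libraries labelled chr11/17, against 94 and 97 in WT.

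ELF4, a small protein that binds ELF3, was read at few counts. It had 31 and 25 in arid5, against 46 and 50 in WT, a fall of 0.61 ± 0.21 (adjusted p = 0.0337). Leaving out any 1 of the 4 libraries ended that call, with adjusted p between 0.0550 and 0.162, as did DESeq2 (0.195) and equal library totals (0.12). ELF4 had 59 and 74 in the libraries labelled chr11/17, against 46 and 50 in WT (0.39 ± 0.19, interval -0.06 to 0.84, adjusted p = 0.101), and was called higher there with equal library totals (0.53, adjusted p = 0.0421). It had 33 and 42 in the libraries labelled rlt1/2, against 51 and 55 in WT (-0.43 ± 0.22, interval -0.90 to 0.05, adjusted p = 0.125). The mutant libraries thus lay below WT in arid5 and rlt1/2 and above it in chr11/17.

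In number, 2 of the 10 clock genes were higher and 5 lower in arid5, where 23.3% and 24.6% of the 20550 genes tested were called higher and lower and 47.9% were called in all. In chr11/17 5 were higher and 3 lower, where 35.9% and 36% of 20878 genes were called and 71.8% in all. In rlt1/2 3 were higher and 3 lower, where 23.8% and 24% of 20741 genes were called and 47.9% in all. The shares of members called were 70.0%, 80.0% and 60.0%, beside 47.9%, 71.8% and 47.9% of all genes. In chr11/17 the share was near that of all genes. In arid5 and rlt1/2 the difference rests on few genes of the 10, and no test of it was made. The median change of the 10 was -0.16, 0.33 and -0.18 in arid5, chr11/17 and rlt1/2, beside 0.003, -0.007 and 0.009 over all genes tested. Without WT replicate 1, or without arid5 replicate 2, 3 members were called lower in arid5 in place of 5. With equal library totals the median of all genes moved to 0.253, 0.147 and 0.269, and the calls over all genes became 9767 higher and 2674 lower in arid5 (4784 and 5062 as deposited), 8867 and 6274 in chr11/17 (7485 and 7507) and 9681 and 2695 in rlt1/2 (4944 and 4982). With that scaling the 10 clock genes had 5 higher and 2 lower in arid5, 6 higher and 2 lower in chr11/17 and 4 higher and 3 lower in rlt1/2, so in arid5 the balance of their directions turned round.

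Ratios of a pair of clock genes within 1 library do not depend on how libraries were scaled. They were taken on levels per kb of exon, for pairs chosen after their values were seen, and an exact permutation test of 2 libraries against 2 cannot give p below 0.333, so none was run. The size of each ratio depends on the exon lengths used, which were the same in every group. LHY per CCA1 was 0.534 and 0.587 in arid5, 1.12 and 0.882 in the libraries labelled chr11/17 and 0.597 and 0.662 in the libraries labelled rlt1/2, against 0.319 and 0.309 in WT. Every mutant library had more LHY for its CCA1 than WT had. RVE8 per CCA1 was 0.316 and 0.368 in arid5, 0.524 and 0.447 in the libraries labelled chr11/17 and 0.367 and 0.373 in the libraries labelled rlt1/2, against 0.281 and 0.274 in WT. PRR9 per PRR7 was 3.35 and 3.19 in the libraries labelled chr11/17, against 0.514 and 0.433 in WT, while arid5 had 0.582 and 0.511 and the libraries labelled rlt1/2 had 0.502 and 0.524, close to WT. In arid5 and rlt1/2 the 2 transcripts were thus lower in a similar proportion, and in chr11/17 they moved apart. PRR5 per PRR7 was 0.067 and 0.0491 in arid5, 0.537 and 0.47 in the libraries labelled chr11/17 and 0.0617 and 0.0857 in the libraries labelled rlt1/2, against 0.0186 and 0.0189 in WT. LUX per ELF4, the subunits of the evening complex, was 1.97 and 2.01 in arid5, 1.92 and 1.88 in the libraries labelled chr11/17 and 2.03 and 1.83 in the libraries labelled rlt1/2, against 0.675 and 0.695 in WT. That ratio was nearly the same in the 3 mutants although both levels were highest in chr11/17. It rests on few ELF4 reads, 32 and 27 in arid5, 62 and 77 in chr11/17 and 36 and 51 in rlt1/2, so its closeness between mutants is uncertain. LUX per TOC1 was 0.474 and 0.457 in arid5, 0.9 and 0.945 in the libraries labelled chr11/17 and 0.547 and 0.558 in the libraries labelled rlt1/2, against 0.279 and 0.308 in WT.

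**Figure D3:**
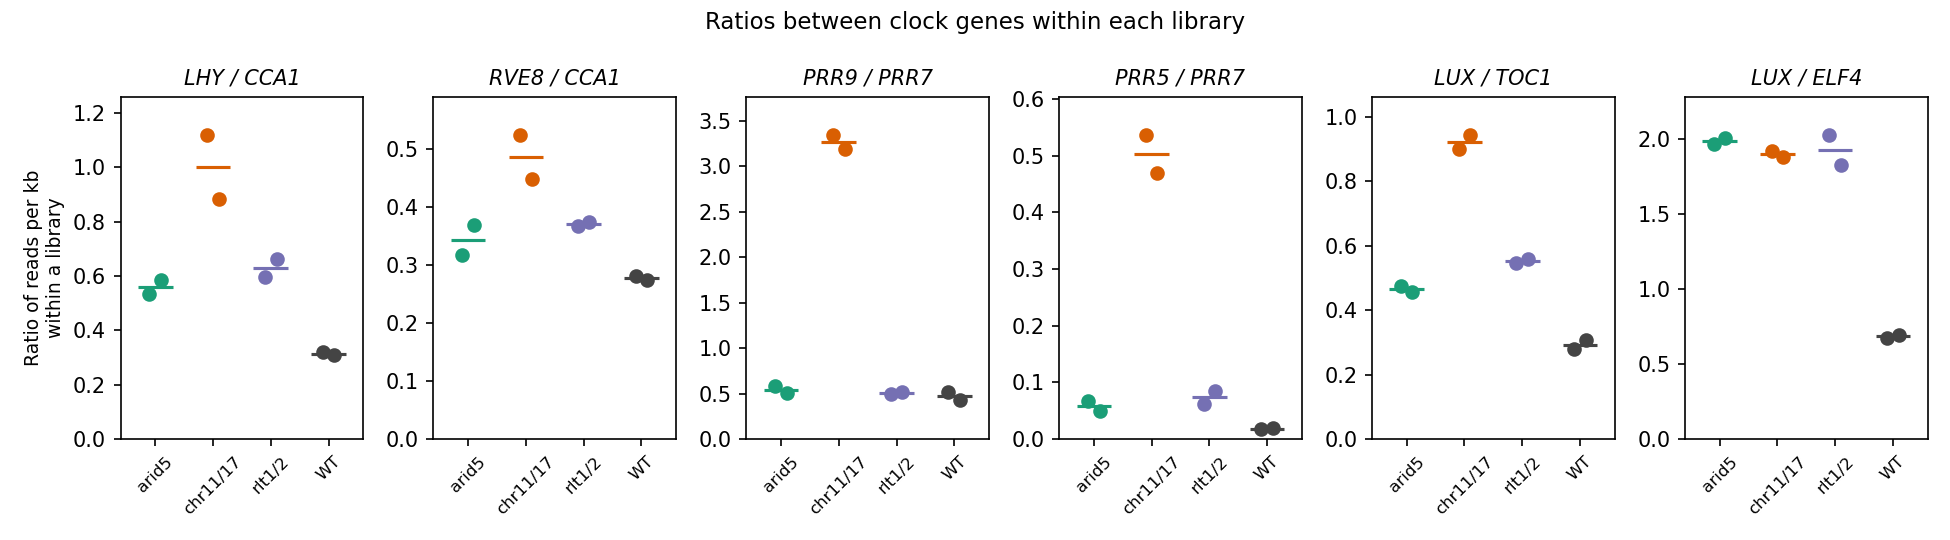
Ratios between pairs of clock genes within each library, on levels per kb of exon (linear axes from 0). Points are libraries, n = 2 per group. LUX per ELF4 lies between 1.83 and 2.03 in the 6 mutant libraries and at 0.675 and 0.695 in WT, while PRR9 per PRR7 is high only in the libraries labelled chr11/17, at 3.35 and 3.19. ELF4 had between 27 and 77 reads in the mutant libraries.

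The mutants were then compared with each other on the recovered reads of all 8 libraries (edgeR quasi-likelihood test). In chr11/17 over arid5, 4 of the 10 clock genes were higher, 2 lower and 4 not called, where 32.2% and 33% of all genes were called and 65.2% in all. PRR9 had 112 and 114 reads at a common library size (CPM) in the libraries labelled chr11/17, against 34.0 and 29.0 in arid5, a 3.58-fold difference (log2 1.85, 95% interval 1.64 to 2.05, adjusted p = 6.82e-08). PRR5 was 5.18-fold higher (2.38, 1.97 to 2.78, adjusted p = 1.31e-06), LUX 2.29-fold higher (1.20, 0.92 to 1.48, adjusted p = 1.16e-05) and ELF4 2.40-fold higher (1.26, 0.69 to 1.83, adjusted p = 0.00139). CCA1 was lower (-0.73, -0.95 to -0.52, adjusted p = 6.95e-05), and so was PRR7 (-0.74, -0.91 to -0.56, adjusted p = 1.64e-05). These 6 genes thus differed between the libraries labelled chr11/17 and arid5. LHY was not called (0.09, interval -0.12 to 0.29, adjusted p = 0.432), nor were RVE8 (-0.24, -0.48 to 0, adjusted p = 0.0682), TOC1 (0.21, -0.01 to 0.44, adjusted p = 0.0901) and ELF3 (0.15, -0.07 to 0.37, adjusted p = 0.209). RVE8 was called lower without arid5 replicate 1 (-0.39, adjusted p = 0.0103) and with library totals alone (-0.37, adjusted p = 0.00719), and TOC1 was called higher without arid5 replicate 1 (0.32, adjusted p = 0.0488) and without chr11/17 replicate 1 (0.31, adjusted p = 0.0376).

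Against the libraries labelled rlt1/2, those labelled chr11/17 had 5 clock genes higher, 2 lower and 3 not called, with 32.2% and 32.6% of all genes called and 64.8% in all. The higher genes were PRR9 (3.85-fold; 1.95, 1.74 to 2.16, adjusted p = 5.61e-08), PRR5 (4.15-fold; adjusted p = 2.93e-06), LUX (2.00-fold; adjusted p = 3.92e-05), ELF4 (2.01-fold; adjusted p = 0.00413) and TOC1 (0.26, 0.03 to 0.48, adjusted p = 0.0437). CCA1 (-0.46, adjusted p = 0.00187) and PRR7 (-0.72, adjusted p = 1.95e-05) were lower. The TOC1 call was lost with DESeq2 (adjusted p = 0.0975), with library totals alone (0.392), and without WT replicate 1 (0.0635), WT replicate 2 (0.0633), chr11/17 replicate 2 (0.257) or rlt1/2 replicate 1 (0.211). LHY was not called (0.20, 0 to 0.40, adjusted p = 0.0738), but was called higher without chr11/17 replicate 2 (0.26, adjusted p = 0.0438), and RVE8 (-0.07, adjusted p = 0.568) and ELF3 (0.03, adjusted p = 0.835) were not called.

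Between rlt1/2 and arid5 no clock gene was called by edgeR or by DESeq2, where edgeR called 0.366% of all genes, 0.324% higher and 0.0423% lower. At an unadjusted p under 0.05, 1 of the 10 passed with edgeR, CCA1, at -0.28 (interval -0.49 to -0.06, adjusted p = 0.463). The 95% intervals of rlt1/2 over arid5 bound the possible difference at -0.32 to 0.09 for LHY, -0.32 to 0.11 for PRR9, -0.18 to 0.16 for PRR7, -0.12 to 0.77 for PRR5, -0.08 to 0.48 for LUX and -0.35 to 0.86 for ELF4 on the log2 scale. For PRR7 and PRR9 those bounds are much narrower than the falls against WT, and for PRR5 and ELF4 they are wider than for the other genes named here.

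Other clock genes were counted from a list of 20 loci, of which 19 passed the filter (FKF1 did not). In arid5 2 were higher, 10 lower and 7 not called (median -0.32), in chr11/17 4 were higher, 9 lower and 6 not called (median -0.24), and in rlt1/2 2 were higher, 11 lower and 6 not called (median -0.35). The shares called were 63.2%, 68.4% and 68.4%, against 47.9%, 71.8% and 47.9% of all genes tested. In chr11/17 the list was thus near the share of all genes, and no test of the difference was made. The 6 listed morning genes had 5, 5 and 6 members lower and none higher in arid5, chr11/17 and rlt1/2. Of all genes tested, 24.6%, 36% and 24% were lower. The 4 evening genes tested had 2, 1 and 2 higher and 1, 1 and 1 lower. The 4 morning genes among the 10 core members were mixed, with 1, 2 and 1 higher and 2, 2 and 2 lower. RVE4, a MYB factor of the same family as RVE8, had 1682 and 1699 in arid5 against 2476 and 2392 in WT, 905 and 1002 in the libraries labelled chr11/17 against 2472 and 2388 in WT, and 1519 and 1432 in the libraries labelled rlt1/2 against 2741 and 2641 in WT. Its changes of -0.52 ± 0.06 (adjusted p = 1.51e-05), -1.34 ± 0.08 (adjusted p = 9.02e-06) and -0.86 ± 0.07 (adjusted p = 2.02e-06) passed the test in all 3 mutants. RVE4 lies 6617 bases from PRR7 on chromosome 5, with 4 genes between them, and CCA1 lies 10411 bases from PRR9 on chromosome 2, with 3 genes between.

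LNK1 and LNK2 encode coactivators that work with RVE8. LNK1 had 3135 and 3310 in arid5 against 4443 and 4253 in WT (-0.43 ± 0.06, adjusted p = 6.83e-05), and 3397 and 3149 in the libraries labelled rlt1/2 against 4920 and 4694 in WT (-0.55 ± 0.07, adjusted p = 7.08e-05). LNK2 had 4319 and 4497 in the libraries labelled chr11/17, against 11684 and 11403 in WT (-1.39 ± 0.08, adjusted p = 7.52e-06). With values as deposited, LNK2 was also called lower in arid5 (-0.34 ± 0.07) and rlt1/2 (-0.40 ± 0.10), and LNK1 in chr11/17 (-0.35 ± 0.07). CHE, a TCP factor that represses CCA1, had 287 and 376 in the libraries labelled chr11/17 against 1299 and 1269 in WT (-1.93 ± 0.13, adjusted p = 1.62e-05), and 921 and 932 in the libraries labelled rlt1/2 against 1440 and 1403 in WT (-0.61 ± 0.07, adjusted p = 3.08e-05). As deposited, CHE was called lower in arid5 as well (-0.41 ± 0.08). ZTL, an F-box photoreceptor that targets TOC1 protein for breakdown, had 1118 and 1078 in arid5, against 1415 and 1415 in WT (-0.36 ± 0.06, adjusted p = 4.8e-04), though not once library totals were made equal (-0.10, adjusted p = 0.173). As deposited, ZTL was called lower in chr11/17 (-0.45 ± 0.07) and rlt1/2 (-0.44 ± 0.08) too.

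A few other clock genes were higher. As deposited, GI was called higher by 0.21 ± 0.08 in arid5, 0.50 ± 0.07 in chr11/17 and 0.34 ± 0.07 in rlt1/2. Its adjusted p (limma) was 0.0496, 5.54e-04 and 0.00229, so the arid5 call lay at the threshold. TIC (0.36 ± 0.08) and AT4G01280 (0.55 ± 0.08) were called higher in chr11/17. PRR3, a relative of TOC1, had 53 and 88 in arid5 against 14 and 11 in WT, a 5.60-fold rise (1.80 ± 0.25, adjusted p = 1.28e-04), and 55 and 79 in the libraries labelled rlt1/2 against 15 and 13 in WT, a 4.82-fold rise (1.67 ± 0.24, adjusted p = 1.35e-04). It had 14 and 10 in the libraries labelled chr11/17, against 14 and 11 in WT, and was not called there. AT1G01520, which RefSeq names ASG4, is another MYB gene of the list and had 879 and 851 in the libraries labelled chr11/17, against 184 and 147 in WT, a 5.23-fold rise (2.33 ± 0.13, adjusted p = 7.34e-06). It lay the other way in the other mutants, with 121 and 133 in arid5 against 184 and 147 in WT (-0.35 ± 0.16, adjusted p = 0.0839, not called) and 134 and 128 in the libraries labelled rlt1/2 against 203 and 163 in WT (-0.45 ± 0.16, adjusted p = 0.0355, lower).

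**Figure D4:**
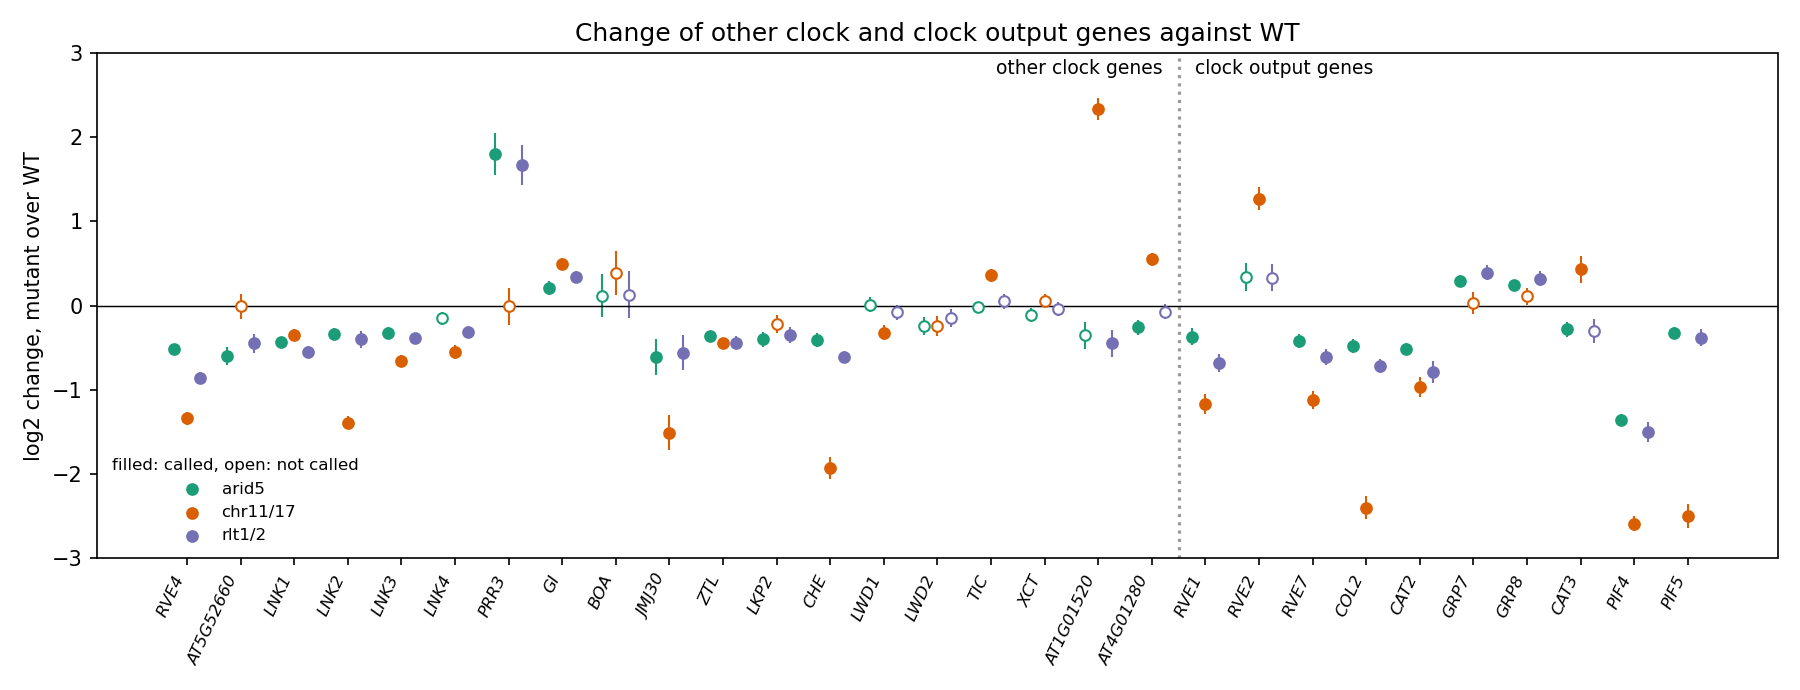
Log2 ratio of mutant to WT for the other clock genes and the clock output genes, with 10 added to each value (n = 2 libraries per group). Filled points passed an adjusted p of 0.05 in limma, and bars are standard errors. PIF4 is lower in all 3 mutants, at -1.36 in arid5, -2.59 in chr11/17 and -1.50 in rlt1/2.

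Outputs of the clock were counted from 11 listed genes, of which 10 were tested (COL1 was not analysed here). In arid5 2 were higher and 7 lower (median -0.35), in chr11/17 2 were higher and 6 lower (median -1.05), and in rlt1/2 2 were higher and 6 lower (median -0.49). Of all genes tested, 23.3%, 35.9% and 23.8% were higher and 24.6%, 36% and 24% lower in these comparisons. These counts too use values as deposited and were not made again with equal library totals, so small falls may depend on scaling. PIF4, a bHLH factor that promotes stem growth and is repressed by the evening complex, had 1359 and 1539 in arid5 against 3931 and 3519 in WT, 574 and 649 in the libraries labelled chr11/17 against 3926 and 3514 in WT, and 1702 and 1225 in the libraries labelled rlt1/2 against 4352 and 3885 in WT. Its log2 changes were -1.36 ± 0.07 in arid5 (adjusted p = 1.71e-07), -2.59 ± 0.09 in chr11/17 (adjusted p = 1.63e-06) and -1.50 ± 0.12 in rlt1/2 (adjusted p = 1.75e-06). Its relative PIF5 had 730 and 1001 in the libraries labelled chr11/17, against 5161 and 4618 in WT (-2.50 ± 0.14, adjusted p = 9.28e-06). As deposited, PIF5 was called lower in arid5 (-0.33 ± 0.07) and rlt1/2 (-0.38 ± 0.10) too. COL2, a CONSTANS-like gene, had 255 and 339 in the libraries labelled chr11/17, against 1654 and 1529 in WT (-2.40 ± 0.14, adjusted p = 8.67e-06), and was lower in arid5 (-0.48 ± 0.08) and rlt1/2 (-0.72 ± 0.08) as well. RVE7, an output MYB factor, changed by -0.42 ± 0.08, -1.12 ± 0.11 and -0.61 ± 0.09 in arid5, chr11/17 and rlt1/2, and in arid5 the call was lost when library totals were made equal (-0.16, adjusted p = 0.106). RVE1, which raises auxin synthesis, had 267 and 276 in the libraries labelled rlt1/2, against 424 and 457 in WT (-0.68 ± 0.11, adjusted p = 2.8e-04). As deposited, RVE1 was called lower in arid5 (-0.37 ± 0.10) and chr11/17 (-1.17 ± 0.12) too. CAT2, a catalase gene with a morning peak, had 26928 and 26451 in arid5, against 38315 and 38235 in WT (-0.52 ± 0.07). As deposited, CAT2 was called lower in chr11/17 (-0.97 ± 0.12) and rlt1/2 (-0.79 ± 0.13) too.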

How the data were processed

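RNA sequencing libraries were prepared for mRNA from total RNA, per the labels' protocols. HISAT2, edgeR and the TAIR10 genome were used, per the submitters' processing notes. Versions, the read counter and its annotation, and whether strand was used, are not stated there. The authors deposited a normalised signal per gene in 3 tables. The values equal those of edgeR's quantile adjustment to a common library size, with a dispersion of 0.0034, 0.00665 and 0.00514 in the arid5, chr11/17 and rlt1/2 tables, and were inverted to whole reads (100.0% of values in each library, relative tolerance 1e-10, 0 differences between the WT reads of the tables). Each mutant was compared with WT of its own table with limma 3.58.1 (trend, in R 4.3.3), after adding 10 to each value and taking log2, for genes reaching 10 in at least 2 libraries. Log2 changes so made understate those of low genes, whereas the folds printed are ratios of group means. P-values are two-sided, Benjamini-Hochberg adjusted over every gene tested in a table, and called below 0.05. The design allowed for counts or normalised values, and the test for normalised values was used. Mutants were compared by edgeR 4.0.16 (quasi-likelihood, TMM) on the recovered reads of all 8 libraries, and DESeq2 1.42.0 was an alternative. Depth was 23135817 to 29965298 reads per library, and counting error alone does not cover PCR copies. The members and lists were chosen with earlier results of these data known. All 10 members were named in each comparison, with up to 4 called genes of each other list by smallest adjusted p. GI, TIC and AT4G01280 were named beyond that rule, as listed clock genes called higher. Scripts were tested on simulated data. Gene models and promoters came from RefSeq (TAIR10.1).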

Additional observations from a re-analysis of the deposited data

Results flagged for a closer look

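PRR9 was singled out because its change differed in direction between the mutants, and the difference itself was tested. That test used the same 8 libraries that led to the choice, so it is not independent of it. It was 1.85 higher on the log2 scale in chr11/17 than in arid5 (edgeR, adjusted p = 6.82e-08) and 1.95 higher in chr11/17 than in rlt1/2 (adjusted p = 5.61e-08). It was above WT in 2 of 2 libraries labelled chr11/17 and below WT in 2 of 2 libraries of arid5 and of rlt1/2. The share of all genes separated in this way is not given here. Groups of 2 libraries are too small to look for a library far from the others.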

How the results depend on the processing

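Of 60 changes of a clock gene (10 genes in 6 comparisons), 37 kept their direction and their side of the threshold under every setting. Settings were another filter or scaling, DESeq2, a replicate block and each library left out, and against WT also another pseudocount and edgeR. A setting that gave a gene no adjusted p was skipped. Some of the 37 were never called, such as ELF3 in chr11/17 and PRR5 in rlt1/2 over arid5. The 37 include LHY, PRR9, PRR7 and LUX in all 3 mutants, and CCA1 and PRR5 in chr11/17 and rlt1/2. The counts called in arid5 were 5 higher and 2 lower with equal library totals, 3 lower with DESeq2, and 3 to 4 lower with a library left out. The cause of these shifts was not tested. Signs turned only for changes that had not passed the test. With equal library totals RVE8 was 0.25 in arid5 and 0.10 in rlt1/2, and ELF3 was 0.07 in rlt1/2. With library totals alone LHY was -0.04 and PRR7 0.01 (chr11/17 over arid5 and rlt1/2 over arid5), and ELF3 was -0.12 (chr11/17 over rlt1/2). Leaving out a library gave -0.17 to 0.14 for RVE8 and -0.02 to 0.19 for TOC1 in arid5, and -0.02 to 0.12 for TOC1 in rlt1/2. It gave -0.03 to 0.20 for LHY (chr11/17 over arid5), -0.23 to 0 for LHY, -0.22 to 0.01 for PRR9, -0.10 to 0.07 for PRR7 and -0.15 to 0.06 for TOC1 (rlt1/2 over arid5), and -0.16 to 0.02 for RVE8 and -0.02 to 0.07 for ELF3 (chr11/17 over rlt1/2). Where a group kept 1 library, that library was assumed to vary like the others. The deviations of same-numbered libraries correlated at -0.003 and 0.014 in arid5 and chr11/17 and at 0.156 in rlt1/2. With only 2 pairs in each and no label tying the numbers to a shared batch, the samples were taken to share only a number. With a replicate block, 9915, 14833 and 11364 genes were called in arid5, chr11/17 and rlt1/2 (9846, 14992 and 9926 without), RVE8 was called lower in rlt1/2 (-0.17, adjusted p = 0.049) and TOC1 was no longer called in chr11/17 over rlt1/2 (adjusted p = 0.0567). Depth limits ELF4 and PRR5, which had under 100 in most libraries.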
